A study of Arabidopsis thaliana with 9 samples.

Results

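The 10 genes described here are nuclear genes of photosynthesis: PSBW and PSBY of photosystem II, PSAE-1 and PSAN of photosystem I, the antenna genes LHCB4.1, LHCB4.2 and LHCB4.3, and RCA, PRK and SBPASE of carbon fixation. They were taken by name from a list of photosystem, light-harvesting and Calvin cycle genes, and every probe set annotated to exactly 1 of them was taken. The list was drawn up with earlier results of these data known, so it is not independent of them. This gave 10 probe sets, 1 for each gene, out of 13513 probe sets for 13350 genes with a single symbol and 22746 probe sets that were not the maker's controls. Root RNA of 3 Arabidopsis thaliana lines was hybridised to Affymetrix ATH1 arrays, 9 in all and 3 a line. The lines cngc1-3 and cngc19 are labelled as T-DNA knock-outs in the Col-0 background and are named after CNGC genes, whose products are ion channels of plant membranes opened or closed by cyclic nucleotides, and the third line is the wild type Col-0. All 3 lines were treated alike: seedlings were moved at day 18 from agar to aerated nutrient solution in light-proof beakers, kept there for 7 days and taken at day 25, when they had reached growth stage 3.90. Each tube pooled the roots of 20 to 30 plants. The title of the study speaks of caesium, but no caesium treatment is listed for these 9 arrays. Each mutant is a single T-DNA line, no probe set used here is named for a CNGC gene, and the knock-outs were therefore not checked through their own transcripts. Nothing in the labels says that the 3 tubes of a line came from separate cultures, so the p-values below speak only of differences among tubes, whose spread may be technical.

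In the chloroplast, the photosystems use light to move electrons from water to NADP, and antenna proteins pass them the energy that chlorophyll absorbs. The Calvin cycle uses the resulting ATP and NADPH to fix CO2. Most subunits of this machinery are encoded in the nucleus, and their genes are active mainly in green tissue and are switched on by light, whereas roots kept in the dark hold non-green plastids and express them weakly. The comparisons ask whether the root transcript levels of these genes differ between a mutant and the wild type, or between the mutants.

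Values below are MAS5 signals, the array maker's linear intensity for a probe set, scaled by the authors so that each array has the same trimmed mean, which lay between 100.002 and 100.011 on the 9 arrays. Signals of different probe sets are not on a common scale, so levels are compared between arrays for 1 gene, or for the sum over a fixed list, in which the brightest probe sets weigh most. Fold changes were fitted on log2(signal + 16), which understates the change of dim genes.

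Of the Col-0 arrays, replicates 2 and 3 stood apart in measures that do not involve these genes. The bacterial and phage control transcripts added to every sample were 18.6 times as bright on Col-0 replicate 2 and 6.55 times as bright on Col-0 replicate 3 as on the other arrays (median over the control probe sets), against 0.658 to 1.27 times on the remaining 7 arrays. Over all 13648 tested probe sets, the log2 values of Col-0 replicate 2 correlated with those of these 7 arrays at r = -0.04 to -0.02, and those of Col-0 replicate 3 at r = 0.26 to 0.38, whereas the 7 arrays correlated among themselves at r = 0.74 to 0.98. The signal ratio between the 3' and 5' ends of GAPDH, which is larger where the labelled RNA is short, was 6.37 and 13.5 by the 2 pairs of control probe sets on cngc1-3 replicate 3 and 2.81 and 35.2 on Col-0 replicate 3, against 0.240 to 1.54 on the other 7 arrays. PYK10, a beta-glucosidase abundant in roots, had signals of 5559, 4891 and 4690.2 in cngc1-3 and 5434, 4409 and 3761 in cngc19, against 4398, 261 and 448 in Col-0. Only 1 Col-0 array, replicate 1, therefore resembled the mutant arrays in these measures, and fold changes against Col-0 are also given without Col-0 replicates 2 and 3. Whether the RNA on these arrays is that of the labelled roots was not tested. Among the other 7 arrays, cngc19 replicate 3 correlated at r = 0.95 with Col-0 replicate 1 and at 0.80 and 0.81 with cngc19 replicates 1 and 2, which correlated with each other at 0.98.

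No gene separated the 3 arrays of a mutant line from those of Col-0, and the wild type held both the highest signal of all 10 genes and the lowest signal of 8. Col-0 replicate 3 was above all 6 mutant arrays for all 10 genes, a position it also held for 38.3% of all tested probe sets. Col-0 replicate 1 was below all 6 mutant arrays for 8 genes, all but PSBW and LHCB4.2, against 13.8% of all tested probe sets. It was below the 5 mutant arrays other than cngc19 replicate 3 for all 10, against 25.1% of all tested probe sets. Several of the lowest signals were far below the median signal of their array (42.2 on cngc19 replicate 3 and 42.1 on Col-0 replicate 1). No ratio of signals is therefore given against them. The log2 differences from Col-0 replicate 1 below depend in size on the added 16. Expressed as log2(signal + 16) minus the gene's 7-array median (Col-0 replicates 2 and 3 left out), the median deviation of the 10 genes was 0.00, 0.00 and 0.81 on the cngc1-3 arrays, 1.13, 0.83 and -1.26 on the cngc19 arrays and -1.39, 0.97 and 4.64 on the Col-0 arrays. In pooled root tissue, a smaller share of expressing cells and less RNA per cell cannot be told apart.

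**Figure D1:**
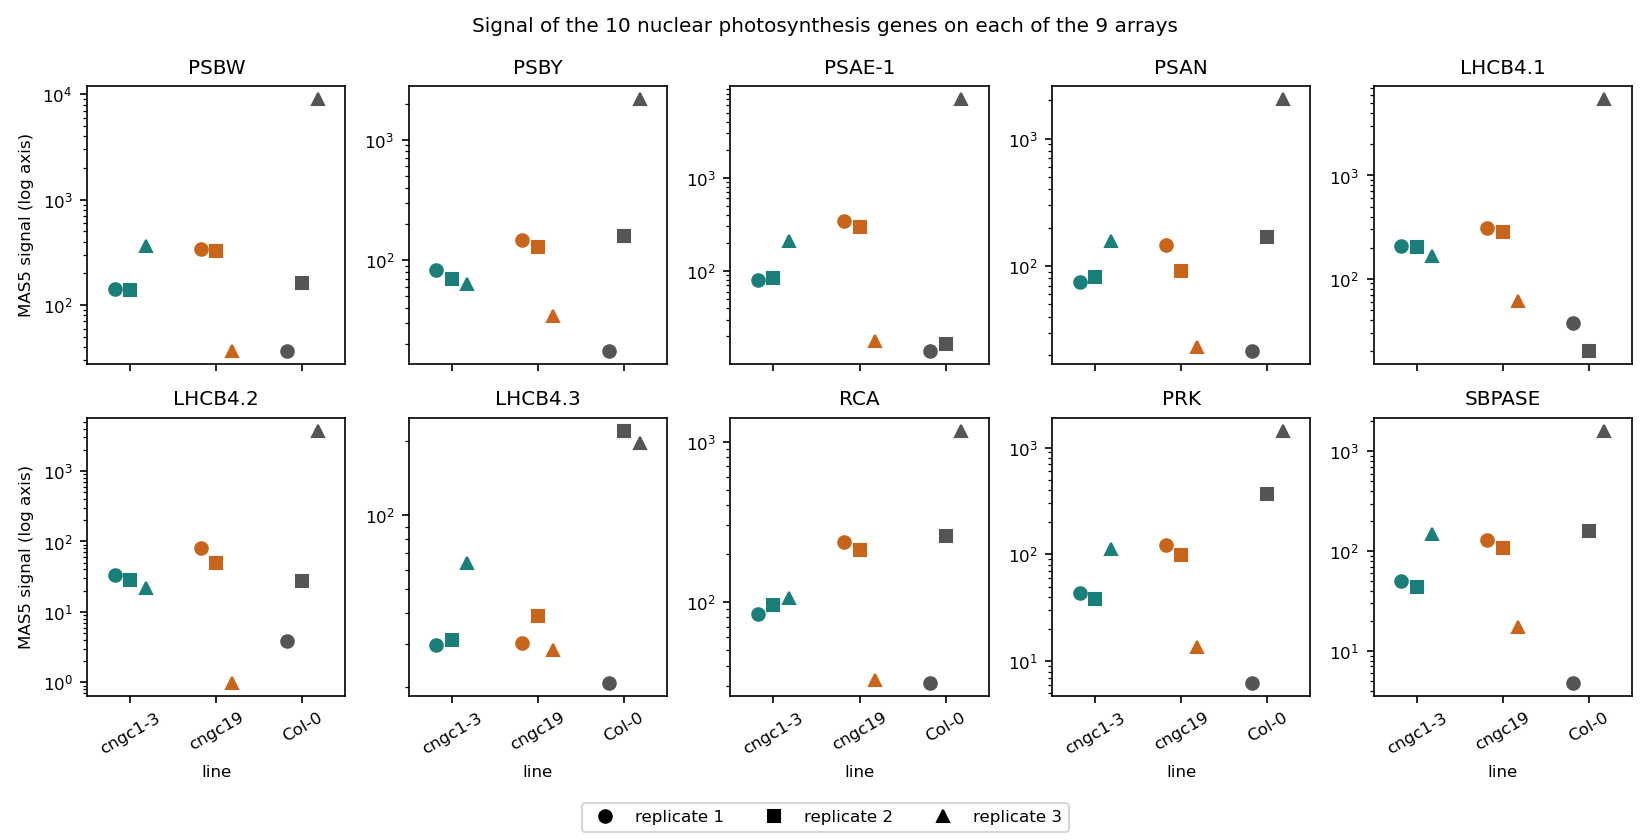
MAS5 signal (log axis, a scale of its own for each gene) of the 10 genes on each array, by line, with circles, squares and triangles for replicates 1, 2 and 3. Col-0 replicate 3 lies above every mutant array for all 10 genes, and Col-0 replicate 1 lies with cngc19 replicate 3 at or near the bottom.

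PSBW (AT2G30570) encodes a small membrane subunit of photosystem II that helps hold its supercomplexes with the antenna together. Its signals were 143.8, 139.4 and 361.8 in cngc1-3 and 342.9, 328.1 and 36.7 in cngc19, against 36.9, 161.7 and 9104 in Col-0. The wild type values spanned those of cngc1-3, and the lowest signal, on cngc19 replicate 3, was just below that of Col-0 replicate 1. PSBY (AT1G67740), another small photosystem II subunit, had signals of 82.2, 70.1 and 63.3 in cngc1-3 and 146.1, 129.3 and 34.1 in cngc19, against 17.5, 157.2 and 2196 in Col-0. The cngc1-3 arrays lay close together for PSBY and below the first and second cngc19 arrays, while Col-0 held both the lowest and the highest value.

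PSAE-1 (AT4G28750) encodes a subunit on the stromal side of photosystem I, where ferredoxin docks. Its signals were 79.5, 84.5 and 211.3 in cngc1-3 and 346.6, 296.1 and 17.6 in cngc19, against 13.8, 16.5 and 7052 in Col-0. Here both Col-0 replicates 1 and 2 were below every mutant array while Col-0 replicate 3 held the highest signal. PSAN (AT5G64040), which encodes a subunit on the lumenal side, where plastocyanin delivers electrons, had signals of 74.6, 81.4 and 157.6 in cngc1-3 and 145.9, 92.1 and 23.04 in cngc19, against 21.5, 169.6 and 2058 in Col-0. For PSAN, unlike PSAE-1, Col-0 replicate 2 was above every mutant array.

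The LHCB4 genes encode CP29, a minor antenna protein that links the photosystem II core to its outer light-harvesting complexes. The 3 genes are close relatives, and their probe sets carry the maker's plain suffix for sets designed to match a single gene. LHCB4.1 (AT5G01530) had signals of 206.4, 205.0 and 164.3 in cngc1-3 and 307.1, 280.7 and 60.6 in cngc19, against 36.8, 19.9 and 5551 in Col-0. LHCB4.2 (AT3G08940) had signals of 33.9, 28.7 and 22.1 in cngc1-3 and 80.0, 49.8 and 0.979 in cngc19, against 3.81, 27.9 and 3751 in Col-0. These genes shared the order of the mutant arrays, with cngc19 replicates 1 and 2 highest and cngc19 replicate 3 lowest, and differed on Col-0 replicate 2, which was the lowest of all arrays for LHCB4.1 only.

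LHCB4.3 (AT2G40100), also called LHCB8, encodes a form of CP29 known mainly from leaves under strong light. Its signals were 29.7, 31.2 and 63.96 in cngc1-3 and 30.3, 39.0 and 28.3 in cngc19, against 20.8, 221.3 and 196.3 in Col-0. On the log2(signal + 16) scale LHCB4.3 varied least of the 10 genes, and it was the only one with its highest signal on Col-0 replicate 2. On that array LHCB4.3 deviated by 2.36 from its median of the 7 arrays and LHCB4.1 by -2.62 (both log2), so a single wild-type array gave opposite positions for genes of 1 family. On cngc19 replicate 3 LHCB4.3 deviated by -0.063, whereas the other 9 genes deviated by -1.60 (PSBW) to -0.78 (PSBY).

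**Figure D2:**
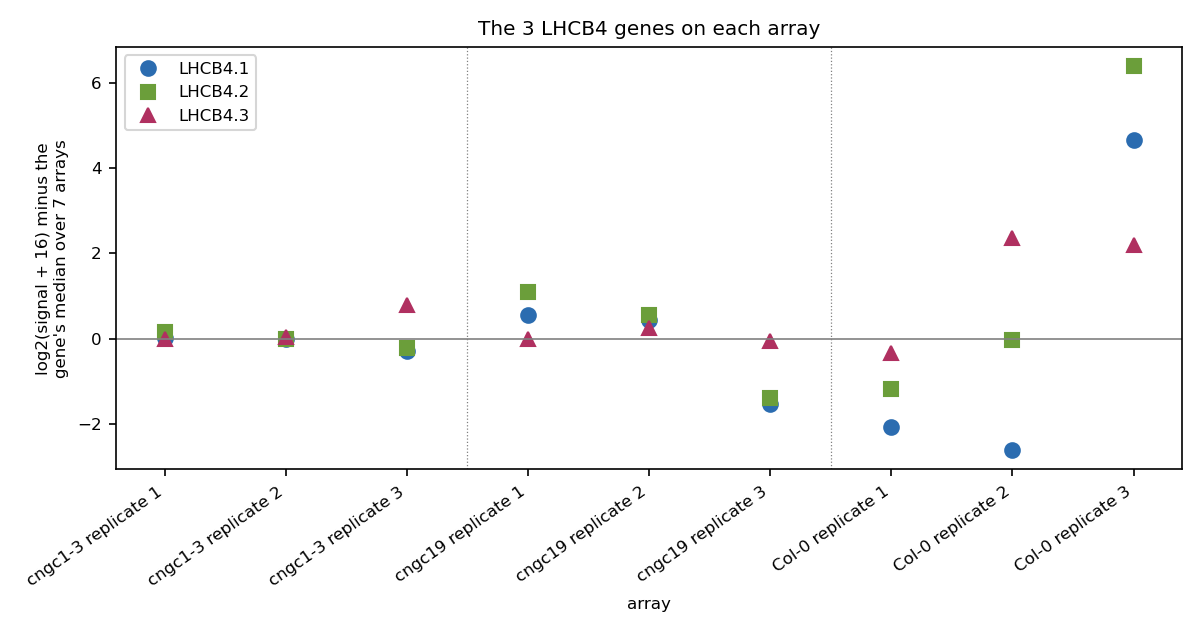
Deviation of the 3 LHCB4 genes on each array, as log2(signal + 16) minus the gene's 7-array median (Col-0 replicates 2 and 3 left out). LHCB4.1 and LHCB4.2 lie on the same side of 0 on cngc19 and on Col-0 replicates 1 and 3, and LHCB4.3 stays near 0 except on cngc1-3 replicate 3 and Col-0 replicates 2 and 3.

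RCA (AT2G39730) encodes Rubisco activase, which frees the CO2-fixing enzyme of inhibitory sugar phosphates. Its signals were 83.8, 95.7 and 105.0 in cngc1-3 and 235.0, 209.8 and 32.8 in cngc19, against 31.2, 258.5 and 1171 in Col-0. The cngc1-3 arrays lay within a narrow band, below cngc19 replicates 1 and 2 and above cngc19 replicate 3. PRK (AT1G32060) encodes phosphoribulokinase, which makes the sugar that accepts CO2, and had signals of 43.2, 38.2 and 111.4 in cngc1-3 and 123.3, 98.4 and 13.5 in cngc19, against 6.25, 366.1 and 1441 in Col-0. For PRK, Col-0 replicate 1 was below and Col-0 replicates 2 and 3 were above all mutant arrays. SBPASE (AT3G55800) encodes sedoheptulose bisphosphatase, an enzyme that regenerates this acceptor. Its signals were 50.1, 43.3 and 149.3 in cngc1-3 and 130.5, 107.5 and 17.6 in cngc19, against 4.78, 159.0 and 1617 in Col-0. For these 3 genes of carbon fixation Col-0 replicate 2 was above every mutant array, as it also was for LHCB4.3, PSAN and PSBY, 6 of the 10 genes in all, against 35.5% of all tested probe sets.

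**Figure D3:**
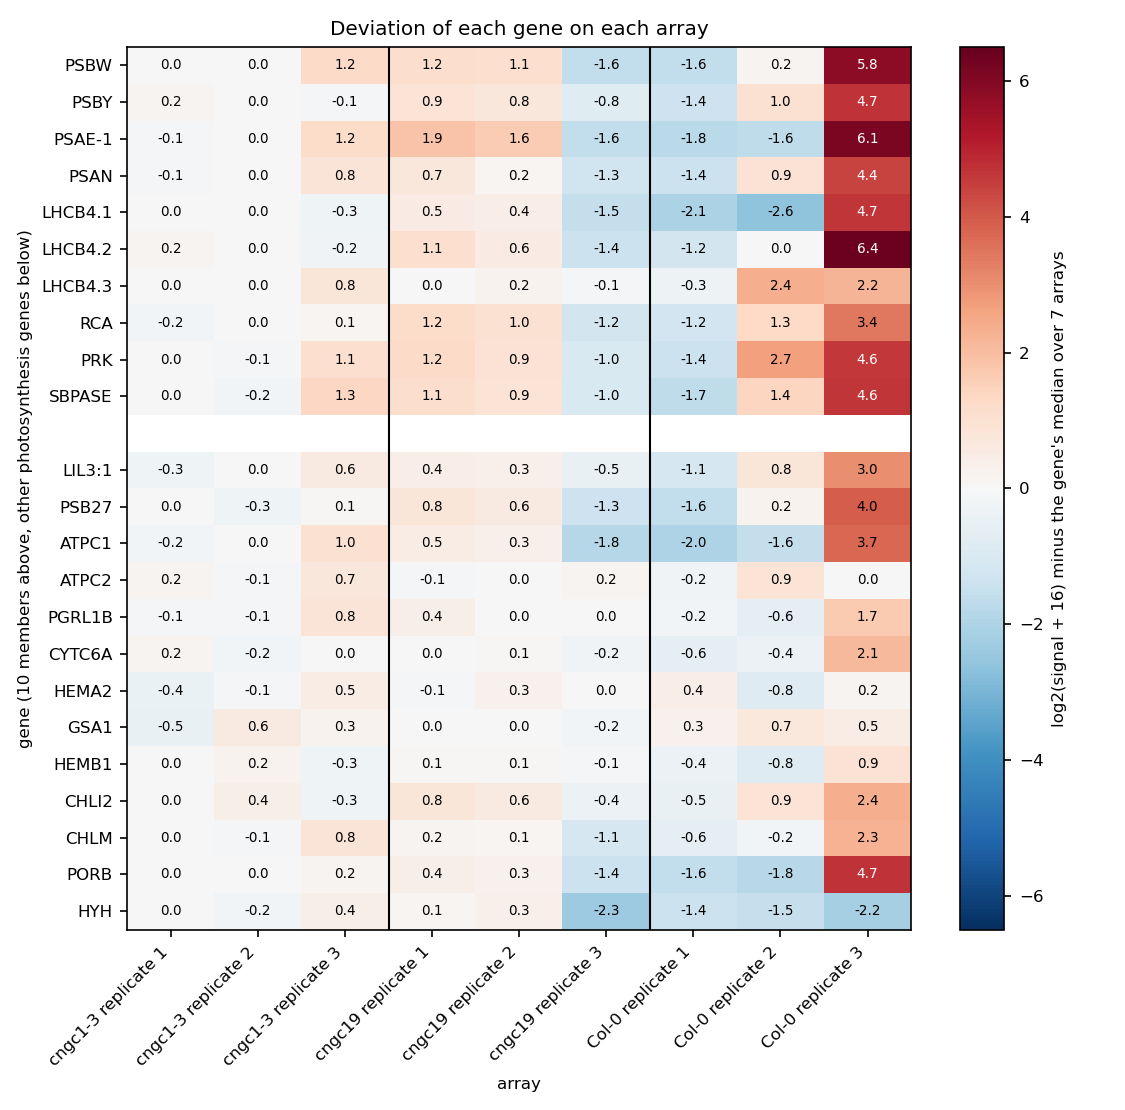
Deviation of each gene on each array, as log2(signal + 16) minus the gene's 7-array median (Col-0 replicates 2 and 3 left out), for the 10 genes (upper rows) and 13 other nuclear photosynthesis genes (lower rows). Red marks values above that median and blue values below it, and the column of Col-0 replicate 3 is red for all 10 genes.

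Against Col-0, the cngc1-3 line had lower fitted values for all 10 genes, and none of these differences passed the test. The median log2 fold change over the genes was -1.11, against -0.03 over all tested probe sets, and single genes lay between -1.75 for LHCB4.2 and -0.08 for LHCB4.1. Mean signals of PSAE-1 were 125.1 ± 74.7 in cngc1-3 and 2361 ± 4062.5 in Col-0 (SD, n = 3 each), and those of LHCB4.3, the gene with the smallest adjusted p, were 41.6 ± 19.3 in cngc1-3 and 146.1 ± 109.3 in Col-0 (SD, n = 3 each). For LHCB4.3 the log2 fold change was -1.14 (SE 0.64, adjusted p = 0.274, limma with Benjamini-Hochberg adjustment over all tested probe sets). For PRK it was -1.64 (SE 1.21, adjusted p = 0.393), and for PSAE-1 -0.55 (SE 1.73, adjusted p = 0.858). None of the 13648 tested probe sets passed an adjusted p of 0.05 in this comparison (0%), although 3301 had an unadjusted p under 0.05 in limma. The arrays of both lines overlapped for all 10 genes, whereas 13.1% of all tested probe sets were higher and 11.3% lower in cngc1-3 without overlap.

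The direction of this comparison depended on which Col-0 array was used. Against Col-0 replicate 1 alone, the mean of the cngc1-3 arrays was higher for all 10 genes, with log2 differences between 0.60 for LHCB4.3 and 2.12 for PSAE-1 and a median of 1.68. Against Col-0 replicate 2 it was higher for 4 genes and lower for 6, between -2.36 and 2.53, and against Col-0 replicate 3 it was lower for all 10, between -6.42 and -1.93. Without Col-0 replicates 2 and 3 the median log2 fold change was thus 1.68, the adjusted p lay between 0.544 and 0.597 in limma, and no gene passed. That fit has 1 wild-type array, which is assumed to vary as the mutant lines do. Without Col-0 replicate 1, in contrast, 4 genes were lower in cngc1-3 at the threshold, LHCB4.3 (-2.01, adjusted p = 0.00517), PRK (-3.33, 0.0125), PSBY (-2.82, 0.0421) and RCA (-2.37, 0.0433), where 17% of all tested probe sets were called lower and both remaining wild-type arrays stood apart. With array weights, which give less influence to arrays far from the fit, LHCB4.2 (-3.87, adjusted p = 0.0473) and PRK (-3.10, adjusted p = 0.0498) were lower, against 3.38% of all tested probe sets. Against Col-0 replicates 1, 2 and 3 alone, LHCB4.2 was at 1.15, 0.004 and -6.42 and PRK at 1.74, -2.36 and -4.30. The weighted values thus leaned on Col-0 replicate 3, although that array stood apart.

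For cngc19 against Col-0 the fitted values were again lower for all 10 genes, and none passed the test. Both mutant lines were set against the same 3 Col-0 arrays, so these comparisons are not independent. The median log2 fold change over the genes was -1.19, against 0.05 over all tested probe sets, with single genes between -1.64 for LHCB4.2 and -0.17 for LHCB4.1. LHCB4.3 had mean signals of 32.5 ± 5.67 in cngc19 and 146.1 ± 109.3 in Col-0 (SD, n = 3 each) and a log2 fold change of -1.35 (SE 0.64, adjusted p = 0.280, limma). RCA had mean signals of 159.2 ± 110.2 in cngc19 and 487.0 ± 603.5 in Col-0 (SD, n = 3 each) and a log2 fold change of -0.83 (SE 0.98, adjusted p = 0.620). None of the tested probe sets passed here either (0%), with 2464 at an unadjusted p under 0.05 in limma, and the arrays overlapped for all 10 genes, whereas 7.45% of all tested probe sets were higher and 6.88% lower in cngc19 without overlap.

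Against Col-0 replicate 1 alone, the mean of the cngc19 arrays was higher for all 10 genes, between 0.40 for LHCB4.3 and 2.39 for PSAE-1, with a median of 1.73. Against Col-0 replicate 2 it was higher for 4 genes and lower for 6, between -2.30 and 2.44, and against Col-0 replicate 3 it was lower for all 10, between -6.31 and -2.13. Without Col-0 replicates 2 and 3 the adjusted p was 0.990 for all 10 genes in limma. Without Col-0 replicate 1, LHCB4.3 (-2.22, adjusted p = 0.00405), PRK (-3.26, 0.0147) and PSAN (-2.82, 0.0471) were lower in cngc19, where 15.3% of all tested probe sets were called lower.

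**Figure D4:**
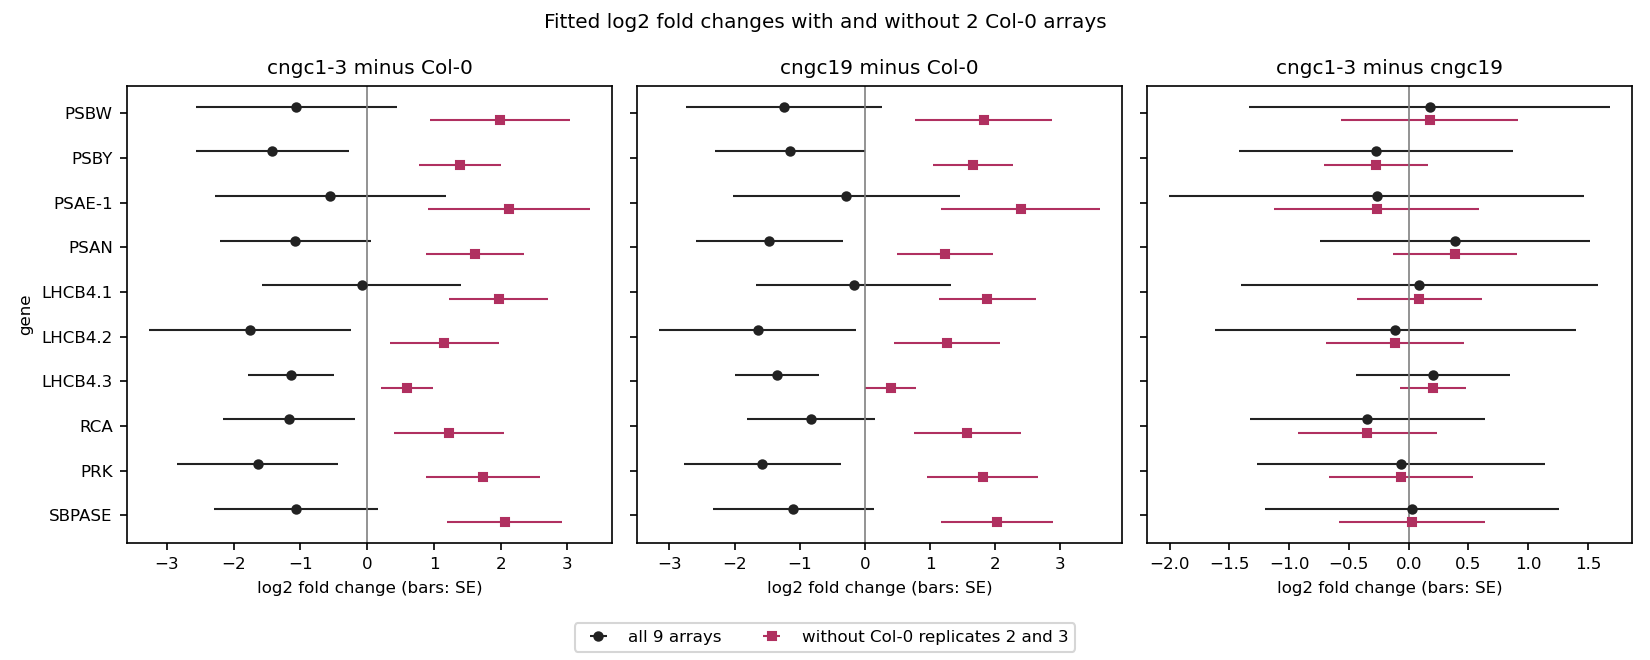
Fitted log2 fold changes of the 10 genes with their SE, for cngc1-3 minus Col-0, cngc19 minus Col-0 and cngc1-3 minus cngc19, with all 9 arrays (black circles) and without Col-0 replicates 2 and 3 (pink squares). Both comparisons with Col-0 lie below 0 for all 10 genes with all arrays and above 0 for all 10 without those arrays.

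Between both mutant lines no gene differed at the threshold, and the arrays of the lines overlapped for all 10. Of the 10 fitted values of cngc1-3 against cngc19, 5 were below 0 and 5 above, between -0.35 for RCA and 0.39 for PSAN, with a median of -0.02 against -0.03 over all tested probe sets. The adjusted p was 1.00 for every gene in limma, no tested probe set was called (0%), and 13 had an unadjusted p under 0.05. Without overlap, 4.81% of all tested probe sets were higher and 3.45% lower in cngc1-3. Replicate 3 lay outside the range of replicates 1 and 2 in both lines, in opposite directions for 7 of the 10 genes. In cngc19, replicate 3 was below the 5 other mutant arrays for all 10 genes, a position it held for 26.3% of all tested probe sets. In cngc1-3, replicate 3 was above replicates 1 and 2 for 7 genes, against 49.5% of all tested probe sets. It was below both for LHCB4.1, LHCB4.2 and PSBY, against 33.5% of all tested probe sets. Its ratios to the mean of replicates 1 and 2 lay between 0.706 for LHCB4.2 and 3.20 for SBPASE.

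Replicates 1 and 2 were close to each other within each mutant line. Both cngc19 arrays were above both cngc1-3 arrays for 9 genes, all but LHCB4.3, a position held by 22.1% of all tested probe sets, and the ratio of the means, cngc19 over cngc1-3, was between 1.14 for LHCB4.3 and 3.92 for PSAE-1. A fit on these 4 arrays and Col-0 replicate 1, with 2 residual degrees of freedom, called 5 genes lower in cngc1-3 than in cngc19, where 0.667% of all tested probe sets were called lower. They were PSAE-1 (-1.78, adjusted p = 0.000962), PSBW (-1.16, 0.00976), RCA (-1.17, 0.00997), PRK (-1.16, 0.0168) and SBPASE (-1.10, 0.0206). The 4 arrays left out were chosen with these values known. Among them, cngc19 replicate 3 holds the lowest mutant signals. Its spiked-in control ratio was 1.27 and its GAPDH ratios were 0.939 and 1.54. The 1.27 and the 1.54 were above those of all arrays kept, where the highest were 1.03 and 1.42. The 1.42 was on Col-0 replicate 1, which was also low for these genes. The 0.939 was within the range of the arrays kept, 0.915 to 1.07. By the 2 actin pairs the 3'/5' ratios of cngc19 replicate 3 were 2.71 and 12.3. These were within the 1.76 to 2.94 and 10.9 to 14.4 of the arrays kept. Whether these control ratios bear on the low signals was not tested. The correlation of cngc19 replicate 3 with cngc19 replicates 1 and 2 was lower than with Col-0 replicate 1. With the 3 arrays of each line the call was not made.

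**Figure D5:**
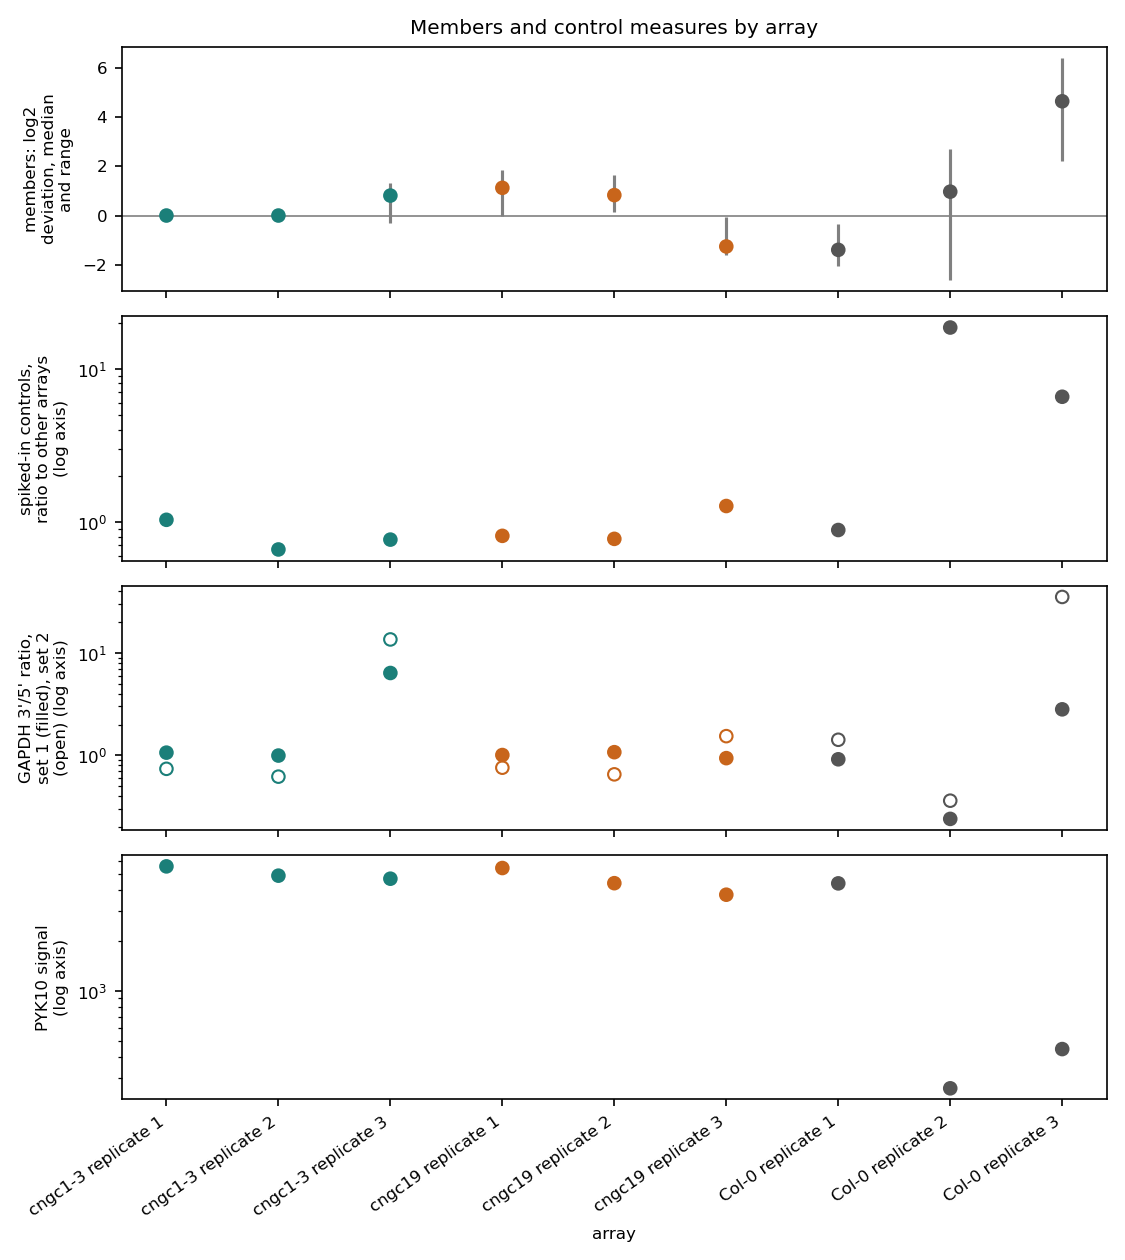
By array, from the top: the median and range of the 10 genes' log2 deviation, the spiked-in control ratio, the GAPDH 3'/5' ratio by 2 pairs of probe sets, and the PYK10 signal (the lower 3 panels on log axes). Col-0 replicates 2 and 3 have raised spiked-in controls and low PYK10, while cngc19 replicate 3 and Col-0 replicate 1 have low values of the 10 genes. By the second GAPDH pair these 2 low arrays are at 1.54 and 1.42, against 0.620 to 0.758 on replicates 1 and 2 of both mutant lines. By the first pair the order is the other way, with 0.939 and 0.915 against 0.995 to 1.07.

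Markers of other tissue were set beside these values. Of 30 shoot markers other than the 10 genes, 5 had a named probe set, and their summed signal was 101 to 134 in cngc1-3 and 44.6 to 134.8 in cngc19, against 31.6, 281.5 and 2810 on Col-0 replicates 1, 2 and 3. Nearly all of the sum on Col-0 replicate 3 was PORB, a light-dependent enzyme of chlorophyll synthesis and so itself a gene of green plastids, with 85.9, 87.2 and 101.2 in cngc1-3 and 117.5, 110.7 and 23.6 in cngc19, against 17.8, 13.7 and 2632 in Col-0. YAB5, a transcription factor of the lower side of leaves, was at 207.0 and 127.8 on Col-0 replicates 2 and 3 and between 1.54 and 15.04 on the other 7 arrays. The stomatal regulators SPCH and MUTE had signals of at most 5.08 on all arrays but Col-0 replicates 2 and 3, where they were 23.8 and 17.2 on replicate 2 and 8.78 and 11.9 on replicate 3. These values were below the median signals of these 2 arrays, 63.9 and 66.3, which exceeded the 32.0 to 42.2 of the other 7. Of the 5 shoot markers, only PORB was among the tested probe sets. Of 30 root markers, 3 had a named probe set (PYK10, EXPA7 and LBD16), with sums of 4851 to 5676 in cngc1-3 and 3947 to 5598 in cngc19, against 4668, 900.1 and 532.2 on Col-0 replicates 1, 2 and 3. These sums are mostly PYK10. EXPA7, a root hair expansin, was highest on Col-0 replicate 2, at 317.6, against 28.6 on Col-0 replicate 3 and 23.02 to 194.7 on the other 7 arrays. LBD16, a lateral root factor, was also highest on Col-0 replicate 2, at 321.7, against 55.6 on Col-0 replicate 3 and 45.3 to 138.2 on the other 7 arrays. The 3 root markers thus did not move together on Col-0 replicate 2. The part of tissue other than root in the values of the 10 genes was not tested.

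Other nuclear genes of photosynthesis were taken from a wider list. Of 173 listed symbols, 13 further genes had a named probe set and 12 were tested, all but CHLI2. None passed in any of the 3 comparisons, with 5 above and 7 below 0 for cngc1-3 against Col-0 (median log2 fold change -0.16), 3 above and 9 below for cngc19 against Col-0 (-0.39), and 9 above and 3 below for cngc1-3 against cngc19 (0.14). Without Col-0 replicates 2 and 3 the direction against Col-0 turned, with 10 above and 2 below 0 in each line and medians of 0.75 for cngc1-3 and 0.50 for cngc19, and again none passed. By array, 9 of the 13 were highest on Col-0 replicate 3, against 22.8% of all tested probe sets. On Col-0 replicate 1, 11 were below their median of the 7 arrays, and on cngc19 replicate 3, 10 were. The median deviation of all tested probe sets was 0.00 and 0.03 on these arrays. PSB27, an assembly factor of photosystem II, had signals of 87.6, 68.0 and 95.0 in cngc1-3 and 161.9, 139.9 and 25.4 in cngc19, against 17.7, 104.8 and 1589 in Col-0. ATPC1, the gamma subunit of the chloroplast ATP synthase, had 215.2, 247.7 and 508.9 in cngc1-3 and 354.7, 311.0 and 58.1 in cngc19, against 48.7, 74.1 and 3493 in Col-0.

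HYH, a bZIP transcription factor related to HY5 that acts in light responses, took another course. It had signals of 85.6, 74.9 and 114.2 in cngc1-3 and 95.2, 109.5 and 4.04 in cngc19, against 22.98, 19.8 and 6.74 in Col-0. HYH was thus low on Col-0 replicate 3, where the 10 genes were high, and lowest on cngc19 replicate 3. All 3 cngc1-3 arrays were above all 3 Col-0 arrays (log2 fold change 1.75, SE 0.64, adjusted p = 0.181), and for cngc19 against Col-0 the log2 fold change was 1.05 (SE 0.64, adjusted p = 0.346, limma for both). Without Col-0 replicates 2 and 3 these were 1.45 (SE 0.91, adjusted p = 0.569) and 0.75 (SE 0.91, adjusted p = 0.990).

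The genes of the chloroplast's own genome, which encode the core subunits with which the nuclear ones assemble, were brightest on the Col-0 arrays that stand apart. Of 33 with a probe set, 28 had their highest signal on Col-0 replicate 3 and 5 on Col-0 replicate 2. Of all tested probe sets, 22.8% were highest on Col-0 replicate 3. Their summed signal was 5867 to 12801 in cngc1-3 and 8180.0 to 13030.2 in cngc19, against 6900.5, 51839 and 208339 on Col-0 replicates 1, 2 and 3. Of these genes 32 were tested and none passed. Their median log2 fold change against Col-0 was -2.90 in cngc1-3 and -2.87 in cngc19 with all arrays, and 0.20 in cngc1-3 and 0.31 in cngc19 without Col-0 replicates 2 and 3.

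The genes whose pattern was most like that of the 10 genes were sought among 7409 tested probe sets with a single symbol. The measure was Pearson's r with the mean profile of the 10 genes. Over all 9 arrays the 6 closest were PSB27 (r = 0.996), AT2G35260 (0.995), AOR (AT1G23740, 0.991), AT1G52220 (0.989), AT4G16980 (0.987) and AT5G07020 (0.987). On Col-0 replicate 3, where the 10 genes deviated most, PSB27 was at 1589 and AT1G52220 at 1224. Over the 7 arrays without Col-0 replicates 2 and 3 the 6 closest were AT5G40660 (0.991), AT3G47070 (0.991), NdhS (AT4G23890, 0.989), AT2G27360 (0.989), AT1G27400 (0.989) and AT5G47550 (0.987), none of which was among the first 6. NdhS, a subunit of the chloroplast NADH dehydrogenase-like complex, had signals of 45.3, 42.8 and 91.3 in cngc1-3 and 90.6, 91.9 and 12.4 in cngc19, against 11.6, 164.7 and 720.7 in Col-0. AT5G47550 followed the 10 genes on the 7 arrays but not beyond them, with 473.2, 408.7 and 880.8 in cngc1-3 and 865.9, 784.3 and 164.0 in cngc19, against 157.4, 14.7 and 125.0 in Col-0. Among the 10 genes, each compared with the mean of the other 9, r over the 9 arrays was lowest for LHCB4.3 (0.666) and LHCB4.1 (0.852) and highest for PSBW (0.990). Over the 7 arrays it was again lowest for LHCB4.3, at 0.598, and highest for PSAE-1, at 0.988.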

How the data were processed

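Total RNA was labelled in 1 amplification cycle, per the labels' protocols. The deposited table holds MAS5 intensity values for 22810 probe sets, 64 of them controls, on a linear scale, and MAS5 and GCOS are the tools in the submitters' processing notes. MAS5 scaling gives all arrays the same average whatever RNA was on them. No 2 arrays were identical. Genes were named through the platform's annotation of 2016, which gave 1 symbol to 13513 probe sets (13436 of them are also in the gene table of RefSeq's assembly TAIR10.1) and several to 503, and 8730 are unnamed here.

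Fits used log2(signal + 16) and limma 3.58.1 (lmFit and eBayes with an intensity trend, R 4.3.3). They held all 9 arrays, left 6 residual degrees of freedom and were two-sided, with Benjamini-Hochberg adjustment and an adjusted p under 0.05 as the threshold. The 13648 probe sets at or over the 40th percentile of mean log2 value were fitted, and all 10 genes were among them, also by the mean of each line alone. The procedure was also run on simulated data. These had independent noise of equal spread on all 9 arrays for each gene, unlike the real arrays, so the run does not bear on the results above. Python 3.11.15, pandas 2.3.3, numpy 2.4.6 and matplotlib 3.10.9 made the tables and plots. Sample titles gave the lines and replicate numbers.

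The 10 genes, the lists and the alternatives were chosen with earlier results of these data known. Named were the 10 genes, the listed photosynthesis and marker genes with a probe set of 1 symbol, and the 6 probe sets with the highest correlation to the mean profile. FDH and TPI were left out of the lists, because these symbols stand for other enzymes in the gene table. Alternatives were other pseudocounts (1 and 64), filters, normalizations (quantile, median centring), eBayes settings, thresholds (adjusted p under 0.1) and weights for arrays, a replicate block, and fits with fewer lines or arrays.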

Additional observations from a re-analysis of the deposited data

How the results depend on the processing

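The fold changes of the 10 genes against Col-0 rest on 3 wild-type arrays that lie far apart, and their direction was not stable. Over the 10 genes, the 3 comparisons and the alternatives, 684 values were computed, of which 572 kept their direction and their side of the threshold, 100 had the opposite direction and 12 passed the threshold in the same direction. Many of the 572 could not turn. Thresholds, filters, eBayes settings, the replicate block and fits with fewer lines leave the fold change as it is. So does leaving out an array of the line not compared. The 572 is therefore no measure of stability. Of those with the opposite direction 20 also passed, so 32 values passed in all. Most of these 20 came from a fit with a single Col-0 array, which holds no measure of wild-type spread. Leaving out 1 array at a time gave median log2 fold changes over the genes between -2.51 and 0.49 for cngc1-3 against Col-0, between -2.60 and 0.48 for cngc19 against Col-0 and between -0.75 and 0.38 for cngc1-3 against cngc19. The highest value against Col-0 came in both lines without Col-0 replicate 3 and the lowest without Col-0 replicate 1. The probe sets called numbered between 0 and 4810 for cngc1-3 against Col-0, between 0 and 4448 for cngc19 against Col-0 and 0 for cngc1-3 against cngc19, and the called genes among the 10 between 0 and 4, 0 and 3, and 0. Both highest counts came without Col-0 replicate 1, while without cngc19 replicate 3 the counts against Col-0 were 14 and 11 with none of the 10 genes.

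Single genes with 1 array left out ranged, for cngc1-3 against Col-0, from -2.59 to 1.12 for PSBW, -2.82 to 0.20 for PSBY, -1.89 to 2.06 for PSAE-1, -2.43 to 0.47 for PSAN, -1.39 to 2.25 for LHCB4.1, -3.21 to 0.58 for LHCB4.2 and -2.63 to 0.52 for SBPASE, and stayed below 0 for LHCB4.3, RCA and PRK. For cngc19 against Col-0 they ranged from -2.77 to 0.95 for PSBW, -2.55 to 0.47 for PSBY, -1.62 to 2.33 for PSAE-1, -2.82 to 0.078 for PSAN, -1.48 to 2.16 for LHCB4.1, -3.10 to 0.69 for LHCB4.2, -2.02 to 0.30 for RCA and -2.66 to 0.49 for SBPASE, and stayed below 0 for LHCB4.3 and PRK. For cngc1-3 against cngc19 every gene had both signs, from -1.38 to 0.34 for PSAE-1, -1.11 to 0.074 for RCA, -0.85 to 0.40 for LHCB4.2, -0.81 to 0.036 for PSBY, -0.77 to 0.35 for PRK, -0.74 to 0.65 for PSBW, -0.64 to 0.43 for SBPASE, -0.58 to 0.46 for LHCB4.1, -0.20 to 0.83 for PSAN and -0.057 to 0.35 for LHCB4.3.

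Without Col-0 replicates 2 and 3 the median was 1.68 for cngc1-3 and 1.73 for cngc19 against Col-0. In cngc1-3 and in cngc19, PSBW was at 2.00 and 1.82, PSBY at 1.38 and 1.66, PSAE-1 at 2.12 and 2.39, PSAN at 1.62 and 1.23, LHCB4.1 at 1.97 and 1.88, LHCB4.2 at 1.15 and 1.26, LHCB4.3 at 0.60 and 0.40, RCA at 1.23 and 1.57, PRK at 1.74 and 1.81 and SBPASE at 2.06 and 2.03. When replicate 3 of both mutants was left out as well, an array choice made with these values known, 3434 and 3248 probe sets were called, 9 of the 10 genes in each line (all but LHCB4.3), against 11.1% and 10.9% of all tested probe sets called higher, with medians of 1.402 and 2.42. In cngc1-3 and in cngc19, PSBW was then at 1.58 and 2.73, PSBY at 1.46 and 2.195, PSAE-1 at 1.72 and 3.50, PSAN at 1.32 and 1.82, LHCB4.1 at 2.07 and 2.55, LHCB4.2 at 1.25 and 2.00, LHCB4.3 at 0.34 and 0.46, RCA at 1.16 and 2.34, PRK at 1.35 and 2.504 and SBPASE at 1.59 and 2.69. For cngc1-3 against cngc19 that choice called 106 probe sets and 5 of the 10 genes, with opposite signs to the fit on all arrays for PSBW (-1.16), LHCB4.1 (-0.48), LHCB4.3 (-0.12), PSAN (-0.49) and SBPASE (-1.10).

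Array weights called 1228 probe sets for cngc1-3 against Col-0, with 2 of the 10 genes, 1047 for cngc19 against Col-0, with none of them, and 9 for cngc1-3 against cngc19, where PSBW (-0.98), LHCB4.1 (-0.43), LHCB4.3 (-0.11), PSAN (-0.27) and SBPASE (-0.89) turned negative. Centring each array on its median moved the median of all tested probe sets to 0.49 and quantile normalization to 0.28 for cngc1-3 against Col-0, to 0.49 and 0.30 for cngc19 against Col-0. Centring gave LHCB4.1 0.43 in cngc1-3 and 0.26 in cngc19 and PSAE-1 0.16 in cngc19, all against Col-0. Quantile normalization gave LHCB4.1 0.42 and 0.26 and PSAE-1 0.11 and 0.19 in cngc1-3 and cngc19, and a pseudocount of 1 gave LHCB4.1 0.23 and 0.094 in them and PSAE-1 0.024 in cngc19. For cngc1-3 against cngc19, the median over the 10 genes was 0.058 with centring, 0.12 with quantile normalization and 0.13 with a pseudocount of 1, PRK was at 0.0092, 0.075 and 0.041 in the same settings, LHCB4.2 was at 0.52 with a pseudocount of 1 and SBPASE at -0.020 with a pseudocount of 64. The cause of these changes was not tested. With the 60th percentile as filter, LHCB4.2 and LHCB4.3 were not tested.

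With the replicate number as a block, no probe set was called in any comparison and none of the 10 genes passed. The medians were -1.11, -1.19 and -0.02 by construction, because each number occurs once in each line and the block cannot change a fold change. Same-numbered arrays deviated from their line means with correlations between -0.23 and 0.19, not all above 0.1, so the numbers were not taken to pair the arrays. The number of arrays limits the precision of all these values.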
